A study of Mus musculus with 16 samples.

Results

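The baseline described here is the RNA of macrophages from 6 nontransgenic mice, each measured on an array of its own. These 6 arrays were chosen by their labels, as the single-animal arrays marked Apoe-/- nontransgenic, out of 16 in the whole series. All mice were female and Apoe-/-, so they lacked apolipoprotein E, the plasma protein that clears remnant lipoproteins. They ate a Western diet for 10 weeks, from 5 to 15 weeks of age, and were then injected intraperitoneally with thioglycollate, a sterile irritant. Peritoneal cells were collected 5 days later and plated, and those still attached after 2 h gave the RNA. The series also holds 6 SR-uPA+/0 transgenic animals, whose levels are not compared here and whose spread is set beside that of the variable and stable genes, and 2 arrays of 1 RNA pooled from the 6 nontransgenic samples, which serve only as a gauge of measurement error. Because every animal carried the Apoe deletion, ate the same diet and received the same irritant, the values describe elicited cells of hypercholesterolaemic mice and not macrophages at rest.

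Thioglycollate draws blood monocytes into the peritoneum, where they mature into large phagocytes over some days. Adhesion to plastic then enriches macrophages over lymphocytes, but neutrophils, mast cells, mesothelial cells and resident macrophages can stay among them. In hypercholesterolaemic mice such cells take up lipoprotein cholesterol, hydrolyse it in lysosomes, store it as droplets or export it, which is the same handling that makes foam cells in the artery wall.

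The platform was Illumina's Mouse Ref-8 v1.1 BeadChip, and the deposited values are intensities on a linear scale. A noise limit was set on each array from the root mean square of its values below 0, at the level that normally distributed noise of this size around 0 would exceed for 5% of probes. It came to 56.8 to 56.9 intensity units. Bright means a mean over the 6 animals above 500. A gene is described by its brightest probe, and 15161 genes had a probe with 1 symbol. Probes bind with different strength, so a rank of intensity is a rank of probe signal and not of transcript number. Gpnmb shows how far probes of 1 gene can lie apart, with means of 62996, 56643, 9056 and 4935. For B2m, the light chain of MHC class I, 1 probe read 46366 and the other read -11.1. A dark probe therefore does not show that a transcript was missing. The probes for Tmsb4x (mean -49.8), an actin-binding peptide abundant in leukocytes, and Cybb (30.5), the catalytic subunit of the phagocyte oxidase, were at noise in these phagocytes. In bulk RNA, fewer cells of a type and less RNA per cell cannot be told apart.

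The arrays were checked before any gene was read. Over the bright probes, the median size of the log2 difference between 2 animals lay between 0.19 and 0.20 for the pairs among animals 1, 2 and 3, between 0.20 and 0.21 for the pairs among 4, 5 and 6, and between 0.23 and 0.27 for the 9 pairs that join an animal of the first 3 with one of the last 3. The 2 pool arrays differed from each other by 0.18. They lay at 0.19 to 0.21 from animals 1, 2 and 3 and at 0.24 to 0.27 from animals 4, 5 and 6, although the pool held RNA of all 6. The design text names 2 chips without saying which array lay on which, so the part of the chip in any difference between animals was not tested. The 3 Y-linked genes with a named probe, Uty, Eif2s3y and Kdm5d, were under the noise limit on all 6 arrays, as the female label requires. Apoe itself had a mean of 104 and ranged from 11.6 to 157.

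Of 24607 probes, 8113 (33.0%) exceeded the noise limit on all 6 arrays and 13215 (53.7%) on none. In genes, 39.8% of the 15161 were above the limit on all 6 arrays, 47% on none, and 23.2% (3519) were bright. Around the threshold, Tspan3 had a mean of 500.2 and Slc17a5 of 499.3. The signal was concentrated. The 100 brightest probes held 20.9% ± 0.438 (SD, n = 6) of the summed positive intensity, the 1000 brightest held 66.1% ± 0.202, and all 4442 bright probes held 94.2% ± 0.0317. The deposited arrays had been normalized to nearly equal quartiles, so these SDs cannot be read as the spread of animals. Only 53 probes had a mean over 40000.

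Genes of the lysosome, iron storage, the cytoskeleton and the ribosome led the ranking. The highest mean belonged to Gpnmb, a transmembrane glycoprotein of late endosomes and lysosomes known from lipid-laden macrophages, at 62996 ± 6576 (SD, n = 6). Its 6 animals read 56295, 62047, 65027, 54698, 69418 and 70491, with animals 4 and 1 lowest and animals 5 and 6 highest. Actb, cytoplasmic beta-actin, followed at 62265 ± 2933. Psap, the precursor of the saposins that help lysosomal enzymes reach sphingolipids, had 61212 ± 6366. Both ferritin subunits, Fth1 (55068 ± 8063) and Ftl1 (52775 ± 5308), stood among the 10 brightest genes. So did Cstb, an inhibitor of cysteine cathepsins, at 55146 ± 2949, and Gpx1, a selenium-dependent peroxidase, at 52568 ± 7462.

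Lyz2, the macrophage lysozyme, ranked eleventh among genes at 51485 ± 4961, and Lgals3, the galectin long used as a macrophage marker, read 50037 ± 2460. The other genes among the first 30 included Anxa2 (52236), a phospholipid-binding annexin; Vim (47845), the intermediate filament protein vimentin; Lamp1 (47763) and Laptm5 (47222), lysosomal membrane proteins; Grn (44980), the progranulin precursor; Cyba (44843), the small oxidase subunit; Ctsb (44475), cathepsin B; and Fcer1g (42879), the signalling chain shared by activating Fc receptors. By fixed lists, 9 of the first 30 and 30 of the first 100 genes were ribosomal proteins, and 8 of the first 100 were lysosomal. Rpl41 (55928), Rplp1 (50617) and Rps20 (49137) were the brightest of the ribosomal group. Of the ribosomal list, 60 of 72 genes were bright, as were 16 of 19 lysosomal genes and 52 of 76 genes of the respiratory chain and ATP synthase, against 23.2% of all genes.

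**Figure D1:**
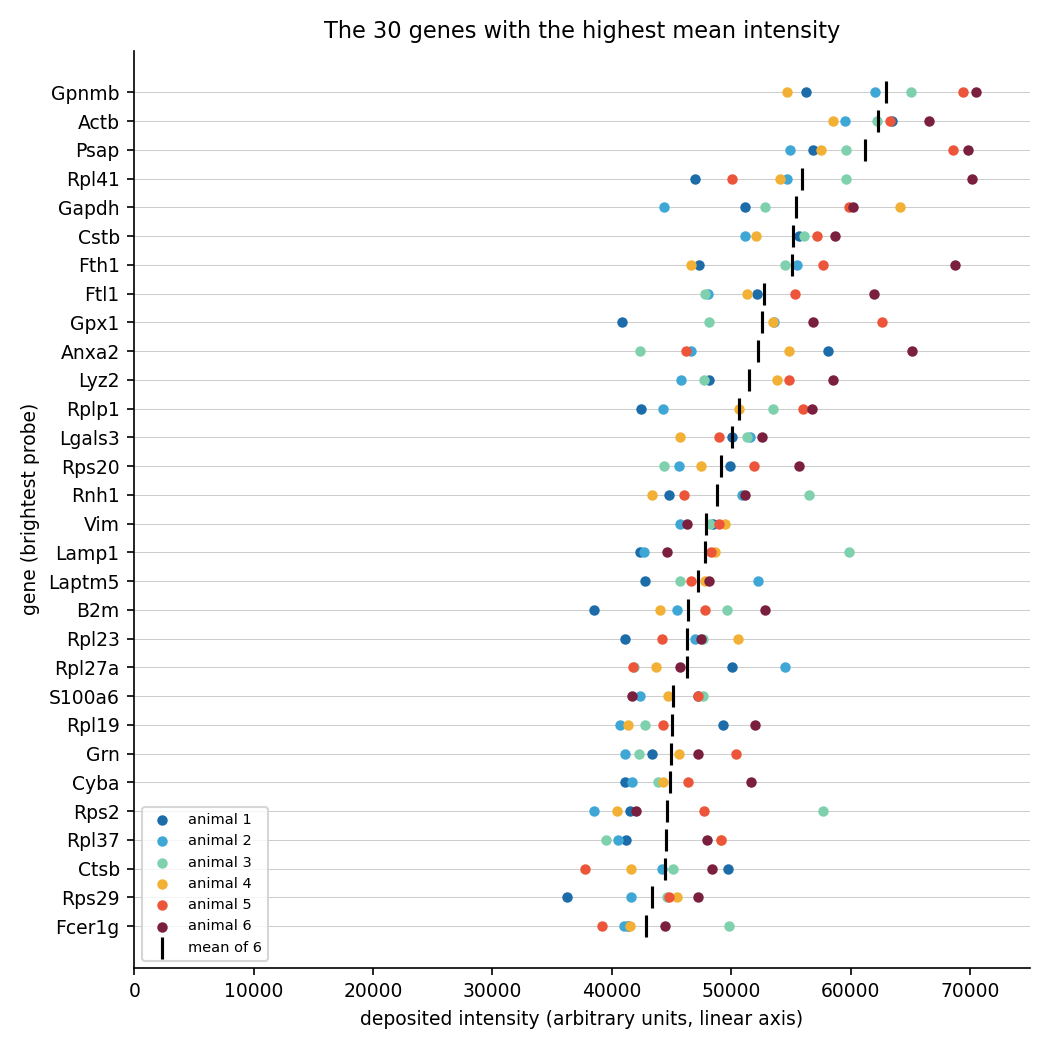
Deposited intensity (linear axis, arbitrary units) of the 30 genes with the highest mean. Coloured points are the 6 animals and the black bar is their mean; the lowest point is 36276 (Rps29, animal 1), and the animals of neighbouring genes overlap throughout.

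Neighbours in this order did not differ beyond the spread of the animals. Gpnmb ranged from 54698 to 70491, Actb from 58508 to 66577 and Psap from 54919 to 69823, so the first 3 places overlap fully. The highest single value on any array was 70491 and the highest values of the 6 arrays reached at least 62047, so these genes sit at the top of the deposited scale.

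The label peritoneal macrophage was checked against lineage markers. Of 17 macrophage markers with a named probe, 13 (76.5%) were bright, compared with 23.2% of all genes. After Lyz2 came the complement subunits C1qb (27237), C1qc (19268) and C1qa (5734), the lipopolysaccharide co-receptor Cd14 (17838), the adaptor Tyrobp (17392) and the Fc receptor Fcgr3 (11335). Adgre1, the F4/80 antigen, read 9861, 9342, 9606, 8226, 8604 and 8438. Animals 1, 2 and 3 each lay above animals 4, 5 and 6, within a range of 1.20-fold, and both pool arrays (11870 and 11397) lay above all 6 animals. The mannose receptor Mrc1 had a mean of 5982, the efferocytosis kinase Mertk 2056 and the lineage transcription factor Spi1 1865. Dimmer were Fcgr1 (532), Siglec1 (342), the CD11b chain Itgam (261) and Marco (85.6), and the scavenger receptor Msr1 was under the noise limit on all 6 arrays. Csf1r and Cd68 were among the markers with no named probe here.

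Markers that separate resident from recruited cells were bright about as often as all genes (23.2%), at 2 of 9 for resident and 2 of 8 for monocyte markers. Gata6, the transcription factor of resident large peritoneal macrophages, read 661, 944, 553, 409, 534 and 355, and Icam2, a surface marker of the same cells, had a mean of 785. Timd4, their phosphatidylserine receptor, stayed between 95.0 and 138, and Cd163 and Alox15 were under the noise limit on every array. The bright markers of monocytes and small peritoneal macrophages were the lectin Mgl2 (1102) and the resistin-like Retnla (805). Ccr2, the receptor that guides monocytes out of the marrow, and the integrin chain Itga4 were under the noise limit on all 6 arrays, and Cx3cr1 averaged 73.0.

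Other cell types left a few bright genes and many dark ones, where 23.2% of all genes were bright. For neutrophils 4 of 15 markers (26.7%) were bright, which is near that share. They were S100a8 (4021), S100a9 (1590), Retnlg (843) and Csf3r (580). The granule genes Mpo, Elane, Ngp and Mmp8 and the chemokine receptor Cxcr2 were under the noise limit on all 6 arrays. No B cell marker of 7 with a named probe was bright. Outside the list, a probe without a symbol whose identifier reads Ig kappa constant, the light chain segment made by B lineage cells, was bright, with a mean of 593. Cd79b, a chain of the B cell receptor complex, averaged 203, and Cd79a, Pax5 and Cr2 were under the limit throughout. None of the 9 T and NK cell markers was bright, and Cd3e, Cd3g and Cd4 were under the limit on every array. The mast cell proteases Cma1 (316), Tpsb2 (153) and Cpa3 (153) were above it on all 6 arrays, without a bright member among 10 mast cell and eosinophil markers. Of the dendritic cell list, Itgax had 406, and none of its 6 markers was bright.

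Bright stromal markers were few, at 3 of 9 for fibroblasts, 1 of 8 for mesothelium, 1 of 6 for endothelium and 0 of 4 for adipocytes, around or under the 23.2% of all genes. Dcn, the matrix proteoglycan decorin, read 6138, 8624, 4206, 4648, 3948 and 4492, with animal 2 highest, and its other 3 probes had means of 1264, 445 and 14.0. Col6a1 (1786) and Col1a1 (516) were the other bright fibroblast markers, whereas Lum and Postn were under the noise limit. Wt1, a transcription factor of mesothelium, averaged 521 and was the bright mesothelial marker. Vwf, von Willebrand factor, had a mean of 2391 while the endothelial markers Pecam1, Kdr, Cdh5 and Tek were under the limit on every array and Emcn exceeded it on 2. Adipocyte markers stayed dim, with Adipoq at 34.2 and Plin1 at -30.0.

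**Figure D2:**
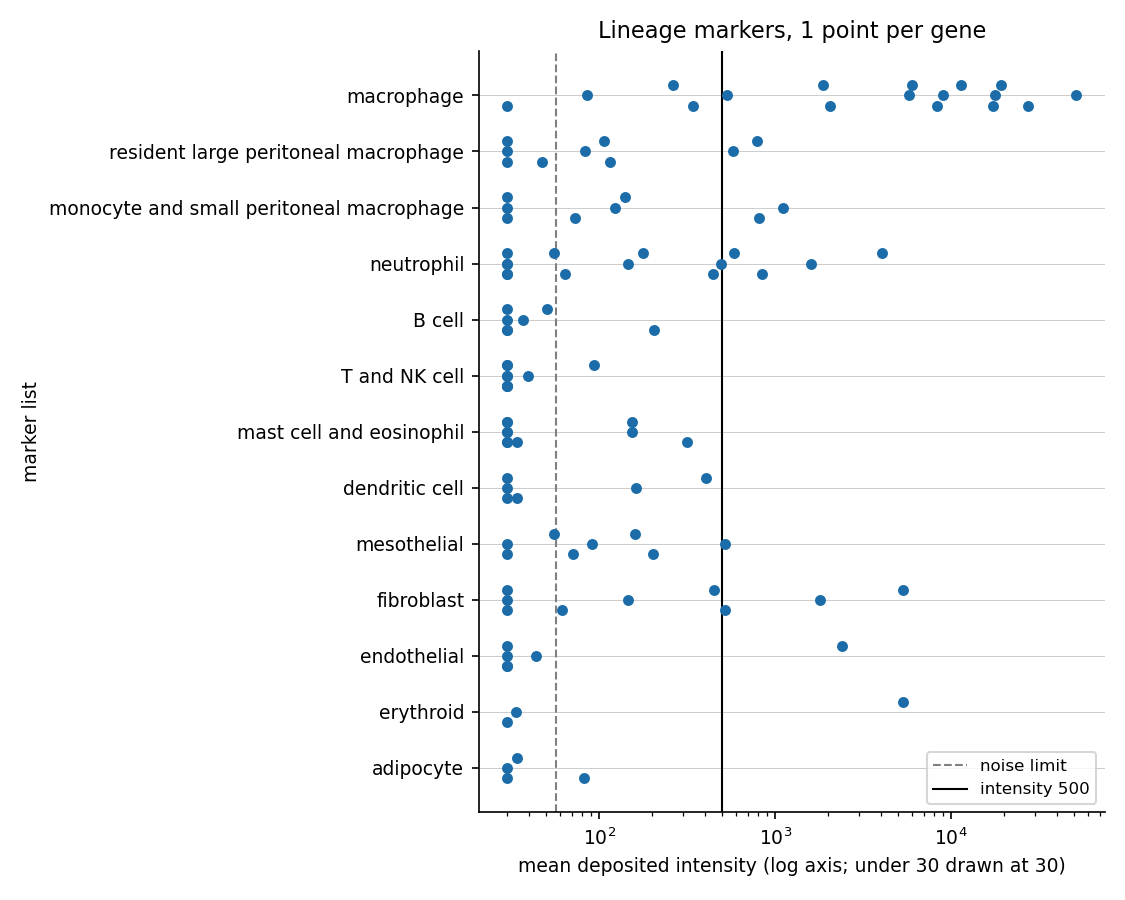
Mean deposited intensity (log axis) of the 6 animals for each marker with a named probe, 1 point per gene and 1 row per marker list; means under 30 are drawn at 30. The macrophage row has 13 points beyond 500, and no other row has more than 4.

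Lipid handling genes were bright more often than the 23.2% of all genes in each list, at 9 of 14 for storage and hydrolysis, 5 of 11 for cholesterol efflux, 4 of 10 for scavenger and lipoprotein receptors and 8 of 20 for sterol and fatty acid synthesis. Plin2, the coat protein of lipid droplets, had 32818 ± 3171 (SD, n = 6) and a range of 1.31-fold. Lpl, the lipase that releases fatty acids from lipoproteins, read 18726, 33165, 29899, 24555, 19404 and 29339, with animals 1 and 5 lowest. Both pool arrays exceeded all 6 animals for Lpl, at 50642 and 38352. Lipa, the lysosomal acid lipase that frees cholesterol from its esters, had a mean of 17612. Hilpda (5677), an inhibitor of droplet lipolysis, and Pnpla2 (5500), the lipase it binds, followed. The fatty acid carrier Fabp5 averaged 1871, whereas the probe of its relative Fabp4 read 9.5 and stayed under the noise limit.

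The cholesterol efflux group held bright and dark members. Abcg1, which exports cholesterol to lipoproteins, had 18790 ± 3518 and Npc2, the lysosomal cholesterol carrier, 10227. Pltp, the phospholipid transfer protein, was the most variable of them, with 8942, 8751, 8194, 22368, 11304 and 18229. Animals 4 and 6 were the highest and animals 1, 2 and 3 lay within 1000 units of each other. Its other 2 probes, with means of 2133 and 766, had a log2 SD of 0.54 and 0.65, against 0.61 for the first. The sterol-sensing receptor Nr1h3 had 3307. The probes of Abca1 (-8.0), Npc1 (-27.8), Srebf1 (-50.5) and Mylip were under the limit on all arrays.

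Among the scavenger and lipoprotein receptors, Scarb2 (4299), Lrp1 (3113), Scarb1 (2506) and Cxcl16 (2500) were bright and none reached a 2-fold range. Cd36 averaged 70.7 and Olr1 and Msr1 were under the limit. The bright genes of sterol and fatty acid synthesis were led by Acly (7915), which makes cytosolic acetyl-CoA, the desaturase Scd2 (4126) and the synthase Hmgcs1 (3890). Fasn averaged 196 and the isomerase Idi1 was at noise. Genes known from lipid-associated macrophages were the brightest list of all by their median mean, 37964 over 9 genes. Trem2, the lipid-sensing receptor, read 17662, 21742, 15581, 27878, 17330 and 24188, and the tetraspanin Cd9 averaged 19957. Of these 9 genes 8 were bright, against 23.2% of all genes, and none of the 8 had a 2-fold range. Ctsl was the dark one, at 10.9.

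The chemokine, inflammatory enzyme and cytokine lists held bright genes beside others that were not. Bright were 6 of 13 CC chemokines, 5 of 11 CXC chemokines, 3 of 8 enzymes and effectors and 5 of 16 cytokines, against 23.2% of all genes. The acute phase protein Saa3 had 24276 ± 5029 (SD, n = 6), the leukotriene pathway protein Alox5ap 23610, and Hmox1, which breaks down haem, 12394. The bright CC chemokines were Ccl9 (22500), Ccl4 (15323), Ccl6 (8913), Ccl3 (8537), Ccl7 (2730) and Ccl2 (672). The bright CXC chemokines included the neutrophil attractants Cxcl1 (11117) and Cxcl2 (8822) and the platelet factor Pf4 (2476).

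The bright cytokines were Il1b (1902), Tgfb1 (1598), Tnf (1473), Il15 (1056) and Il1a (671). Il6, Il10, Il12a, Il23a, Ifnb1, Ifng, Csf2, Csf3 and Il1rn were under the noise limit on every array, as were the inducible enzymes Nos2 (6.8) and Ptgs2 (-6.2). Of all genes 23.2% were bright. In the interferon list 3 of 12 genes were bright, which is near that share. These were Ifitm3 (33183), Bst2 (9554) and Rsad2 (1428), whereas Ifit1, Gbp2 and Oas1a were under the limit. The alternative activation list had 5 of 10 bright, with Tgm2 (14935), Arg1 (10414), Mrc1, Mgl2 and Retnla as the bright members and Chil3 (-8.1), Alox15 and Pdcd1lg2 at noise. All 5 genes of the Fc gamma receptor list, which counts the signalling chain Fcer1g, were bright, against 11 of 18 for pattern recognition. In the latter, Clec4d (10981), Tlr2 (7651), Ly86 (4257), Ly96 (3558) and Tlr4 (1678) were read well and Tlr3, Tlr5 and Tlr9 were under the limit.

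Of the metalloproteinases and their inhibitors 5 of 11 were bright, and of the plasminogen activation list 4 of 6, against 23.2% of all genes. Mmp12, the macrophage elastase, had 27292 ± 4294 and its relatives Mmp14 and Mmp13 had 7732 and 5005. The inhibitors Timp2 and Timp1 averaged 11648 and 651. Mmp9 (442), Timp3 (441) and Mmp19 (325) were dimmer, Mmp2 (67.1) was above the noise limit on 4 arrays, and Mmp3 and Mmp8 were under it on all 6. Plaur, the receptor that holds urokinase at the cell surface, was steady at 3527, 3759, 4102, 3650, 3143 and 4369. Plau, urokinase itself, was not. Its values were 885, 3527, 513, 1464, 2145 and 2416, a range of 6.88-fold, with animals 1 and 3 lowest and animal 2 highest. The pool arrays read 3225 and 3424, far above the animals' mean of 1825 and near the highest animal, although the pool held RNA of all 6. The cause was not tested. Plat, the tissue-type activator, averaged 169 and Plg, plasminogen, was under the noise limit. Serpinb2, the intracellular inhibitor PAI-2, varied most of all named genes, as described next.

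**Figure D3:**
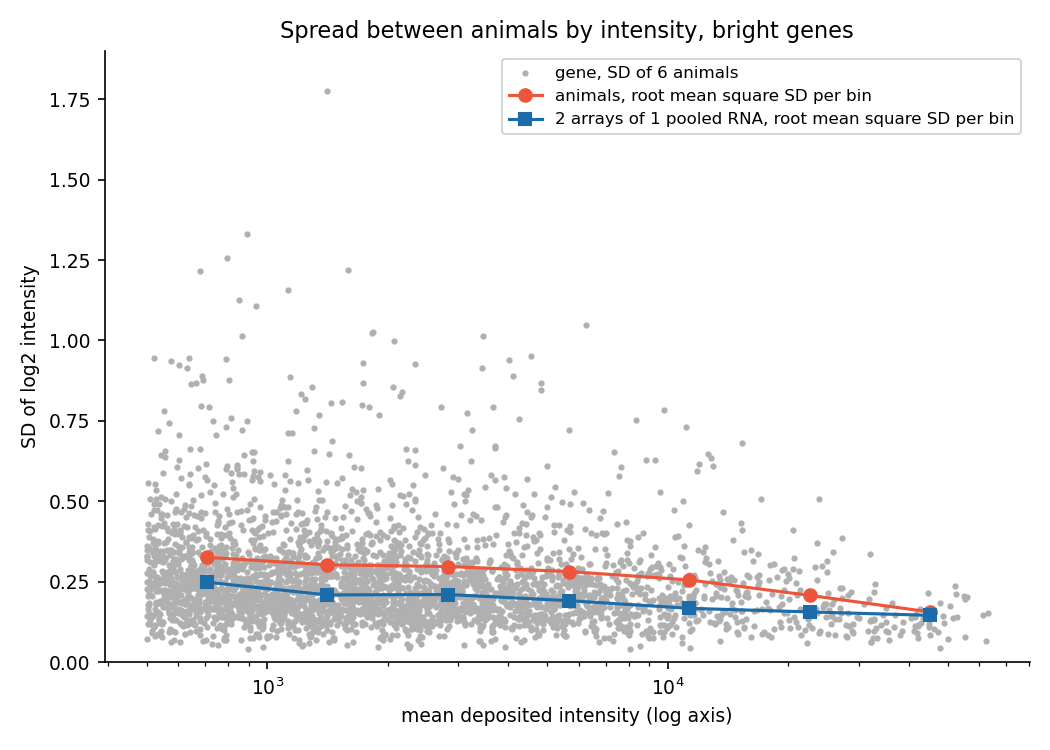
SD of log2 intensity over the 6 animals (vertical axis) against mean deposited intensity (log axis), 1 grey point per bright gene. Red points give the root mean square SD of animals in bins of intensity, falling from 0.326 to 0.157, and blue squares that of the 2 arrays of pooled RNA, falling from 0.249 to 0.146.

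Animals differed little for most bright genes. Over the 4442 bright probes the SD of log2 intensity had a median of 0.22, and 80% of probes lay between 0.12 and 0.43. The error gauge is the pair of pool arrays, whose root mean square SD was 0.22 against 0.30 for the animals. Beyond an intensity of 32000 the values were 0.15 and 0.16, so among the brightest probes the animals varied hardly more than 2 arrays of 1 RNA. For probes between 500 and 1000 they were 0.25 and 0.33. In all, 635 bright probes (14.3%) had a range of 2-fold or more over the animals and 69 had 4-fold or more. At equal error a range over 6 arrays is wider than a difference between 2. Taken in pairs, 2 animals differed 2-fold for 1.49% (animals 2 and 3) to 4.73% (animals 1 and 6) of bright probes. The 2 pool arrays did so for 33 probes (0.743%). In genes, 13.8% of the 3519 bright ones had a 2-fold range. By list, none of the 9 bright glycolysis genes, 4 of the 60 ribosomal genes and 1 of the 16 lysosomal genes had one, compared with 6 of 8 for MHC class II and co-stimulation, 6 of 9 immediate early genes, 4 of 5 cytokines and 4 of 11 pattern recognition genes. Animal 1 was highest for 115 and lowest for 90 of the 485 genes with a 2-fold range, animal 2 for 59 and 51, and the other 4 animals lay between 56 and 90 on either side.

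Serpinb2 had the largest spread of a named gene, with a log2 SD of 1.77. A probe without a symbol had 2.24, from 1216 to 2966 in 5 animals and -6.3 in animal 6. The only Serpinb2 probe read 4038, 1481, 2003, 508, 198 and 229, a range of 20.4-fold, and the pool arrays read 1206 and 1152. The pool arrays thus lay 0.07 apart on the log2 scale, against 4.35 for the animals. Animals 4, 5 and 6 each read below animals 1, 2 and 3.

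Hba-a1, an alpha chain of haemoglobin, came second with a log2 SD of 1.70. Animal 3 read 23563 while the others read 3218, 1782, 1130, 1102 and 1259. The pool arrays read 5227 and 5388, close to the animals' mean of 5342. Of the other erythroid markers with a named probe, Alas2, the first enzyme of haem synthesis in red cells, had 221 in animal 3 and was under the noise limit in the other 5, and Slc4a1 was under it in all 6. The part of red cell RNA in other values of animal 3 was not tested.

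Cxcl13, a chemokine for B cells that peritoneal macrophages make, came next. It read 293, 1538, 159, 959, 1198 and 1203, so animals 1 and 3 lay apart from the other 4. The calprotectin subunits S100a9 and S100a8 ranged 8.73-fold and 5.30-fold. S100a8 read 10790, 2227, 4406, 2036, 2281 and 2384, and S100a9 read 4678, 826, 2117, 536, 748 and 633, with animal 1 highest and animal 3 next for both. Of the other neutrophil markers above the noise limit on all 6 arrays, Pglyrp1 (642), Mmp9 (588) and Lcn2 (356) were also highest in animal 1. Retnlg (1709) and Csf3r (747) were highest in animal 4, and Ltf (195) in animal 2. Mpo, Elane, Ngp, Mmp8 and Cxcr2, at noise on all arrays, gave no order. Whether neutrophil content moved with these values was not tested further.

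Several other secreted or surface proteins stood among the 30 most variable genes. Hp, haptoglobin, read 1101, 986, 1193, 308, 344 and 156, and a second probe with a mean of 181 also had its highest value in animal 3. Fpr2, a receptor for formylated peptides, read 694, 1555, 2025, 679, 266 and 419. Spon2, a matrix protein, and Vegfb, a vascular growth factor, ranged 5.09-fold and 5.04-fold. Retnla, outside the first 30 by 1 place, read 351, 402, 589, 1280, 632 and 1576, and Trf, transferrin, read 2687, 3971, 1912, 7761, 3609 and 9021, so both were highest in animals 6 and 4.

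Zbtb7a, Klf2, Bach1, Nfil3 and Cdkn1c were also among the 30 most variable genes. Nfil3, a repressor tied to the clock and to cytokine responses, read 5635, 5585, 4404, 1843, 1380 and 1834. The clock gene Nr1d2, outside the first 30, ran the other way, at 598, 579, 627, 1282, 1061 and 1422, while Clock itself stayed between 1809 and 2279. Zbtb7a read 250, 314, 254, 1354, 1233 and 1369, Bach1, a haem-regulated repressor, 410, 411, 312, 1517, 1167 and 919, and Klf2 469, 1349, 746, 307, 1931 and 292. In Nfil3, Nr1d2, Zbtb7a and Bach1 each of animals 1, 2 and 3 lay on 1 side of each of animals 4, 5 and 6, the division seen over all bright probes. Klf2 and Cdkn1c did not split this way. The share of all bright genes that do was not counted, so the split cannot be called particular to these genes. Cdkn1c, an inhibitor of cyclin-dependent kinases, read 1936, 6973, 2384, 9412, 5395 and 11360. Cebpb, a regulator of inflammatory genes, had 1 low reading, 2786 in animal 6 against 7573 or more in the others.

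**Figure D4:**
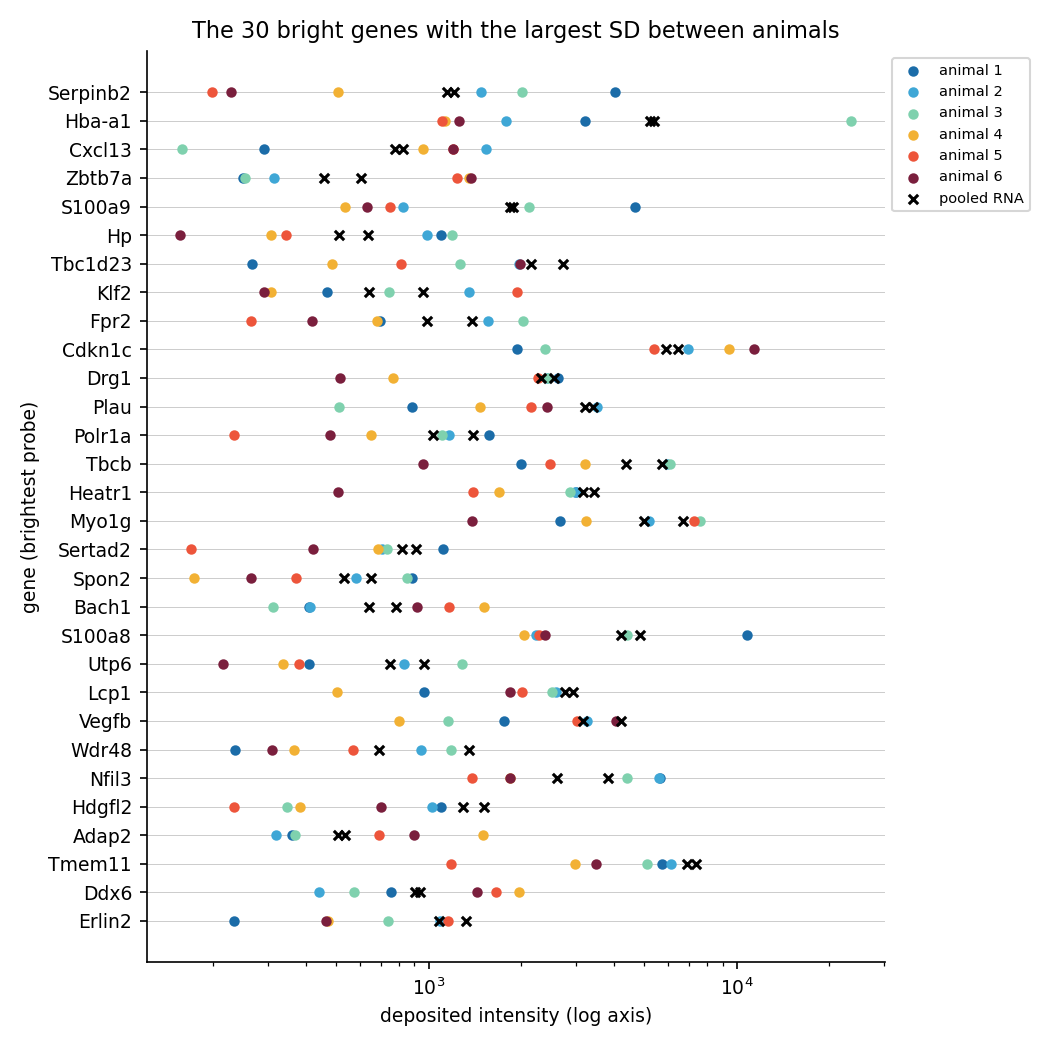
Deposited intensity (log axis) of the 30 bright genes with the largest SD between animals. Coloured points are the 6 animals and crosses the 2 arrays of their pooled RNA, which lie close together for most genes; Serpinb2 spans 20.4-fold and Hba-a1 21.4-fold.

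Genes for everyday functions also appear in that plot, among them Tbc1d23, Drg1, Polr1a, Tbcb, Heatr1, Utp6, Wdr48, Hdgfl2, Tmem11, Ddx6, Erlin2, Sertad2 and Adap2. The animals ranged 7.43-fold for Tbc1d23, and its pool arrays lay 0.34 apart on the log2 scale. Other probes of variable genes often did not follow. Among the 50 most variable genes 7 had a second probe above the noise limit on all 6 arrays. The highest animal was the same for 2 of the 7 and the lowest for 2. Clec4e, an inducible C-type lectin, kept both, with a log2 SD of 0.79 and 0.71 on its 2 probes. Heatr1 had 1.00 on the first probe and 0.31 on the second, and Drg1 1.03 and 0.17. For the genes with 1 probe, which include Serpinb2, Cxcl13, Plau and Nfil3, no such check exists here.

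For 43 of the 50 most variable genes the mean of the pool arrays fell within the range of the animals, and for 37 it was within 1.5-fold of their mean. Of all 3519 bright genes, it fell within the range for 2780 and within 1.5-fold for 3447. The wide ranges of the 50 ease the first count. By the second, the pool matched the animals' mean less often for these 50 than for bright genes at large. Their choice for a large spread by itself lowers the second count, since such a mean is less certain. In the 6 SR-uPA+/0 animals, which played no role in choosing these genes, 40 of the 50 had an SD in the upper 10% of bright genes there, which hold 352 of 3519 by construction. These 40 probes thus varied in both sets of animals.

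Genes of antigen presentation were highest in animals 4 and 6. Cd74, the invariant chain, read 8099, 10483, 6718, 17700, 11137 and 21689, and H2-Ab1, a class II beta chain, read 6360, 7733, 5404, 12810, 6942 and 16551. Animal 6 was highest and animal 3 lowest for both, and a second H2-Ab1 probe had a log2 SD of 0.66 against 0.63. H2-Aa (3716), H2-Eb1 (3618), H2-DMa (1019) and H2-DMb1 (961) each had animals 4 and 6 highest. Over the list of class II and co-stimulation genes, animals 4 and 6 held the 2 highest values for 7 of 8 bright members and animals 1 and 3 the 2 lowest for 6 of 8. Of all bright genes, 11.1% had the first pair highest and 10.1% the second pair lowest. Both pairs were taken as the most frequent in this list, which by itself raises its counts over these shares. The exception at the upper end was Cd80, highest in animal 5 (1351). Ciita, the class II transactivator, averaged 59.4, too close to noise to order. The B cell marker Cd79b, at 106, 181, 101, 327, 159 and 347, was likewise highest in animals 6 and 4 and lowest in 3 and 1. The Ig kappa constant probe read 185, 625, 117, 739, 754 and 1138, with animals 3 and 1 again lowest and animals 6 and 5 highest. Of the 7 listed B cell markers Cd79b alone was above the limit on all arrays, and Cd79a, Pax5 and Cr2 were under it on all 6. The part of B cells in the class II values was not tested.

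Promoters of H2-Aa, H2-Eb1, H2-DMb1 and H2-DMa were read for the inverted CCAAT box, a known element of class II promoters bound by NF-Y. The 120 bases before the start are shown, from RefSeq tables of build GRCm38.p6, 5′ to 3′ on the strand of the gene, with matches to TGATTGG in capitals. H2-Aa lies at chr17:34287824-34287943 (minus strand), H2-Eb1 at chr17:34305747-34305866 and H2-DMb1 at chr17:34153071-34153190 (plus strand).
H2-Aa: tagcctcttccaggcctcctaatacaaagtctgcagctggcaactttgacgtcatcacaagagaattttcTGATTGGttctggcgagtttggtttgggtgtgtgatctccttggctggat
H2-Eb1: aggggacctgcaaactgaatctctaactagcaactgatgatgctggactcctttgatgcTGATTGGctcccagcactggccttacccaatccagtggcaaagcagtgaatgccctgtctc
H2-DMb1: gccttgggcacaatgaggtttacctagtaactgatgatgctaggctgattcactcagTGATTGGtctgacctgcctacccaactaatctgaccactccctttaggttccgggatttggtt
The match began 50, 61 and 63 bases before the start. On either strand of the 250 bases before a start, 7.23% of 32851 promoters in the table held these letters. Neither promoter listed for H2-DMa held them. No promoter was listed under the symbol H2-Ab1, and that of Cd74 was not read here. A match describes letters only and is not a measured binding site.

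Some chemokines and sensors were lowest in animals 5 and 6. Cxcl1 read 13928, 13631, 11305, 16787, 4612 and 6440, a log2 SD of 0.73, and its pool arrays read 12432 and 12443. Cxcl2 read 11517, 11174, 10468, 10337, 4441 and 4993, so in both genes animals 5 and 6 lay under the other 4 with no overlap. Il1b read 3445, 1760, 1941, 2348, 759 and 1157, and Tlr2 10546, 9176, 8267, 8090, 3242 and 6582, with the same pair at the bottom. Ccl4 differed in that animal 4 (9520) joined animals 5 (7666) and 6 (11432) under the other 3, which reached 16337 or more. Animals 5 and 6 were the lowest pair for 5 of 11 bright pattern recognition genes, 3 of 5 cytokines, 3 of 5 CXC chemokines and 5 of 9 immediate early genes, compared with 8.95% of all bright genes. For the CC chemokines the most frequent lowest pair was animals 4 and 5, for 3 of 6, compared with 7.96%. In every list the pair was taken as its most frequent one. That choice by itself raises the count over the share of a fixed pair. By the mean deviation of its bright members, the CXC list was lowest in animal 3 (-0.36) and next in animal 5 (-0.30). Egr1, a growth-factor induced transcription factor, read 2204, 3605, 3983, 4965, 1564 and 1839, and Junb 2707, 2186, 1854, 4544, 1263 and 1494. Dusp1, a phosphatase of the same early response, stayed between 20076 and 23488.

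Cxcl1 and Cxcl2 are neighbours on chromosome 5 and were read for a kappaB-type motif, GGGAA and TTCC with any 1 base (N) between them, shown in capitals with its overlapping match on the other strand. Cxcl1 is shown at chr5:90891125-90891244 and Cxcl2 at chr5:90903779-90903898, both on the plus strand, from the same tables and over the same 120 bases.
Cxcl1: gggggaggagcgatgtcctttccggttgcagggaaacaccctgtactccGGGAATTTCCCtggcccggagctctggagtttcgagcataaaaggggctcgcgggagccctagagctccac
Cxcl2: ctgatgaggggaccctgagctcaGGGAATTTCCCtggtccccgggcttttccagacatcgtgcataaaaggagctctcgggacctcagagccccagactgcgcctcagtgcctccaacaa
Both promoters held the same 11 letters, starting 71 bases before the start in Cxcl1 and 97 in Cxcl2. Of all 32851 promoters 0.283% held the motif on either strand. Both motifs were chosen after the values had been seen.

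**Figure D5:**
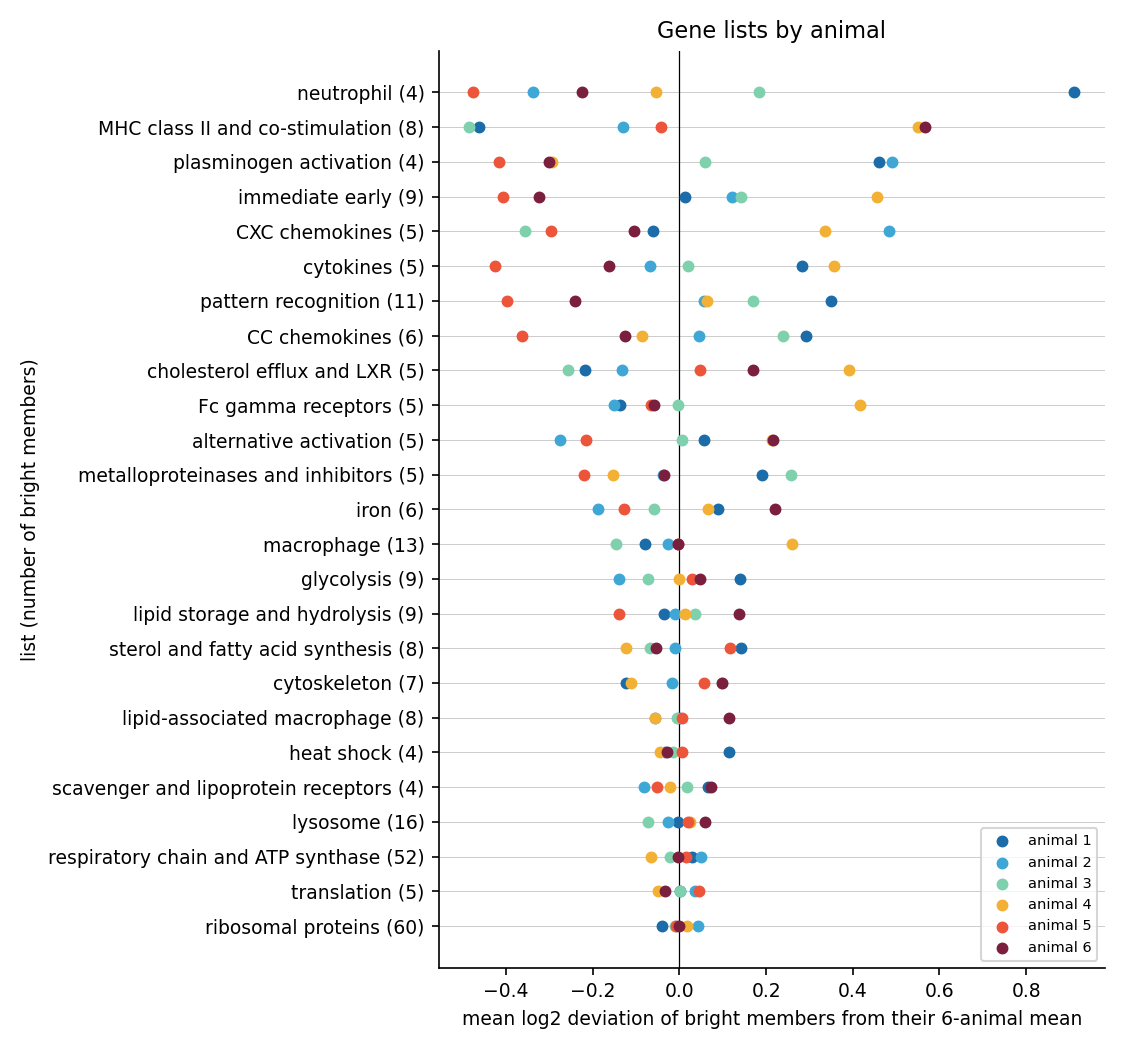
Mean log2 deviation of the bright members of each list from their own 6-animal mean (horizontal axis), 1 coloured point per animal; the number of bright members is in brackets. Lists are ordered by range, from 1.39 for neutrophil markers and 1.05 for MHC class II and co-stimulation down to 0.08 for ribosomal proteins.

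At the other end, the 50 least variable genes had a log2 SD between 0.04 and 0.07. Laptm4a, a lysosomal membrane protein, read 8270, 8064, 7956, 8252, 7680 and 8232, a range of 1.08-fold. Wdr5, a scaffold of histone methyltransferases, read 889, 934, 874, 905, 913 and 861. Bscl2, the seipin of lipid droplet formation, ranged from 10961 to 11816, Arsa, the lysosomal arylsulfatase A, from 2186 to 2362, and Vav1, a leukocyte exchange factor, from 3772 to 4143. Vim ranged from 45674 to 49439 and Actb from 58508 to 66577. Eef1d and Eef1g, subunits of an elongation factor, and Fau, a ribosomal protein precursor, were also near this end. Others among the first 20 were Usp3, Ntpcr, Psme3ip1, Pex14, Ccdc12, Anp32a, Mrps7, Prpf19, Cers2, Dmap1, Golph3l, Man2c1 and Coro1c.

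This end of the ranking held up poorly. Eef1d differed 1.10-fold among animals but read 7962 and 4687 in the pool arrays. Second probes existed for 7 of the genes and had a median log2 SD of 0.30, and for Actb the other 2 probes had 0.54 and 0.26 against 0.07. In the SR-uPA+/0 animals 7 of the 50 had an SD in the lower 10% of bright genes, and 13 of 50 lay above the median. Leaving out 1 animal kept 21 to 28 of the 50.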

How the data were processed

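Deposited intensity values of the 16 arrays were used on their linear scale; they were made by the authors with BeadStudio, per the submitters' processing notes. They run below 0 and have nearly equal quartiles on every array (medians 22.6 to 22.8), so the authors had subtracted background and normalized them; the labels and headers do not say how. The deposited table of 32 columns without normalization was not used, since its columns match no sample's labels. RNA integrity numbers were 8.9 to 9.7 per the labels' protocols.

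After 4 control probes were left out, 24607 probes remained, of which 19851 had 1 symbol in the platform annotation, which can be old, and 4756 had none. An 18S rRNA probe paired there with an mRNA gene was left unnamed. Values under an array's noise limit were raised to it before log2. No test between groups was run, because the arrays form 1 group; single animals far from the others were looked for with the critical values of Dixon; the spread statistics were tested on simulated data. The number of arrays limits the precision, and each animal has 1 array.

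Named are the 30 brightest genes, the 30 most and 20 least variable bright genes, and from each of 42 gene lists the up to 6 brightest members, up to 3 dimmest and the most variable bright one, with Plau, Plaur, Apoe and Y-linked genes. Genes outside this rule were named after their values were seen, and of the genes it selects some are left out. Members, lists and thresholds were chosen with earlier results of these data known. Older symbols were looked up as synonyms in RefSeq. Alternatives covered the noise limit, thresholds, scale, normalization, measure of spread and leaving out each animal. Python 3.11.15 with numpy 2.4.6, pandas 2.3.3, statsmodels 0.14.6 and matplotlib 3.10.9 was used.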

Additional observations from a re-analysis of the deposited data

Results flagged for a closer look

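Of 170 bright probes whose values are given here, 4 had an animal that stood far from the other 5 on the log2 scale. Chance alone would flag about 1 in 20 groups of independent and unselected values, and 2.35% were flagged here. That rate does not carry over, since some of the 170 were picked for large or small spread and all share 6 animals. The share therefore cannot decide whether a single reading arose by chance. Hba-a1 read 23563 in animal 3, against 1102 to 3218 in the others. Cebpb read 2786 in animal 6, against 7573 to 11064. Ntpcr read 1762 in animal 3, against 1895 to 1938, a narrow range. The probe without a symbol that varied most read -6.3 in animal 6, against 1216 to 2966.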

How the results depend on the processing

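No test between groups was run, so the alternatives bear on counts and values only. Counts of probes above noise (6890 to 9663), of bright probes (3125 to 5920) and of probes with a 2-fold range (488 to 638 over all animals, 490 to 565 with an animal left out) stayed within 1.5 times the value given. The share of the 100 brightest probes became 18.6% when a constant brought the lowest value to 0. The median SD between animals became 0.21 with 100 added before log2, 0.24 for means over 250, 0.21 for means over 1000, and lay between 0.21 and 0.22 with an animal left out. The median SD of the pool pair, 0.13, became 0.12 with 100 added and 0.13 for the SR-uPA+/0 pool pair. Of the 100 brightest genes 96 to 99 remained under the other settings, and of the 50 most variable 38 to 50. Of the 50 least variable, the interquartile range kept 7, leaving out an animal kept 21 to 28 and the other settings kept 41 to 49. No paired analysis was possible because the result comes from no test within 1 group. Signal over noise limits what dim probes can show.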

Other observations

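Metabolic and state genes not described above added a further picture. Of 11 glycolysis genes 9 were bright, against 23.2% of all genes, and none of the 9 reached a 2-fold range. Among them Ldha had 27285, Tpi1 21970, Pkm 20072 and the hexokinase Hk2 4674. The metal transporter Slc11a1, known from macrophage resistance to microbes, read 41138, 37282, 36791, 26590, 23019 and 27373. Heat shock genes were led by Hspa8 (32067), with Dnajb1 (3313) and Hsph1 (3120) below it. None of 9 cell cycle genes was bright, where Rrm2 had 220, Cdk1 had 99.9 and Ccna2 was under the noise limit on all 6 arrays.

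For some bright probes the readings of the pooled RNA fell outside the range of its animals. Both pool arrays lay above all 6 animals for 194 bright probes and below all 6 for 240, together 9.77% of 4442. Measurement error alone would also put both pool arrays outside the animals for a share of probes. That share was not worked out, so the 9.77% cannot be called more than error gives. The median ratio of the pool mean to the animal mean was 0.987, and 80% of ratios lay between 0.812 and 1.19. Tbc1d23 read 2721 and 2155 in the pool against at most 1983 in an animal, and Tmem11 read 7395 and 6910 against at most 6105. The cause was not tested.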
